A study of Homo sapiens with 4 samples.

Results

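Broad initiation zones are long stretches of a chromosome listed as 1 region of nascent-strand enrichment in HCT116 cells with intact RepID (WT). They were selected on the width of the WT regions that the authors deposited: every region on chromosomes 1 to 22 that spanned 20 kb or more was taken, which gave 1433 zones out of 77492 autosomal WT regions (1.85%) and out of 78859 in the whole list. Because the width of WT regions chose the zones, their widths and WT scores are descriptions. What was compared is the content of the zones in 2 lists that played no part in the choice, namely the RepID-bound regions of U2OS cells and the nascent-strand regions of HCT116 cells without RepID (KO).

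HCT116 is a colorectal carcinoma cell line and U2OS an osteosarcoma cell line, and the cultures were asynchronous. The KO cells were HCT116 cells selected with puromycin after CRISPR-Cas9 cutting of the fourth exon of the RepID gene, also named PHIP, with a single guide; the WT cells carried the unedited gene. RepID binding was read by ChIP-Seq with an anti-FLAG antibody in U2OS cells that stably expressed FLAG-tagged RepID, so binding and initiation came from different cell lines. Each list came from 1 library, the lists do not measure the RepID protein, and the HCT116 library titled as a genomic control was not analysed here. With 1 library per condition there is no spread between replicates, and no test between WT and KO cells was made. Exact binomial 95% confidence intervals accompany shares and Newcombe 95% intervals accompany differences of shares. Both account for counting error alone, and since adjacent regions are related they are too narrow. The read depth of the libraries is unknown.

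Replication of a mammalian chromosome begins when the origin recognition complex and its partners load the MCM helicase onto DNA and a fraction of the loaded helicases is later activated. At some loci initiation is concentrated at a short site, and at others it is dispersed over an initiation zone that contains many potential start sites, of which few fire on any single chromosome copy. RepID binds a subset of origins and was first isolated as a protein bound to replicator DNA of the human beta-globin locus; it can also serve as a substrate receptor of CUL4 ubiquitin ligases. A list of regions pools many cells, so a broad region can hold separate start sites used in different cells.

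The zones spanned 20 to 149.8 kb, with a median of 26.4 kb and quartiles at 22.4 and 34.6 kb. They covered 44.5 Mb, which is 14.8% of all autosomal bases in WT regions. Most of them, 911, were narrower than 30 kb, 111 spanned at least 50 kb and 5 at least 100 kb. At the limit itself, 26 zones were exactly 20 kb wide and 34 WT regions fell just short of it at 19.8 kb. Of these neighbours, 14 of the 26 and 22 of the 34 held a RepID region, and KO regions covered 35.4% and 29.6% of their bases. The WT score is a whole number that the sources used here do not explain. It had a median of 4764 in the zones, against 122 in the whole list. Per kb of region its median was 174 in zones, 116 in WT regions of 10 to 20 kb and 55.5 in those under 10 kb, so the zones were long regions that also scored high along their length.

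The zones were spread unevenly over the autosomes. Chromosome 17 held 188, more than any other, followed by chromosome 1 with 134, chromosome 16 with 114, chromosome 11 with 111 and chromosome 19 with 110. These 5 chromosomes together held 45.8% of the zones. Set against the length of each chromosome up to its last listed region, the density was 2.32 zones per Mb on chromosome 17, 1.86 on chromosome 19, 1.83 on chromosome 22 and 1.26 on chromosome 16, against 0.498 over all autosomes. Chromosomes 13, 18 and 6 lay at the other end, with 3, 8 and 19 zones and densities of 0.0261, 0.103 and 0.111 per Mb. The order was not only that of how many WT regions a chromosome had: zones made up 4.42% of the WT regions of chromosome 17 (95% confidence interval 3.82 to 5.08%) and 3.91% of those of chromosome 22 (3.17 to 4.77%), but 0.187% on chromosome 13 (0.0387 to 0.547%).

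**Figure D1:**
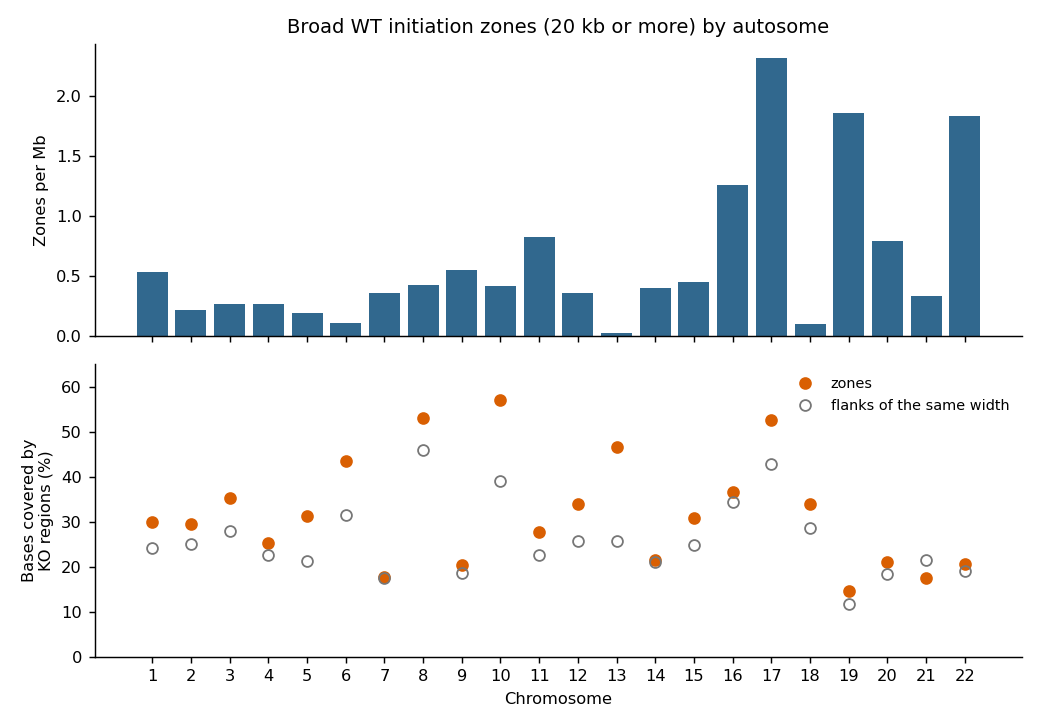
The upper panel plots the number of broad WT zones per Mb on each autosome as bars, and the lower panel the percentage of bases covered by KO regions in the zones (filled) and in flanks of the same width on both sides (open). Zone density is highest on chromosome 17 at 2.32 per Mb, and KO coverage exceeds 50% on chromosomes 8, 10 and 17.

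Zones often lay close to other initiation regions and to chromosome ends. The median gap from a zone to the nearest WT region of any width was 1.2 kb, as for WT regions of 10 to 20 kb, against 2.8 kb over all autosomal WT regions. Such a neighbour within 2 kb was found for 1095 zones (76.4%), 70.2% of WT regions of 10 to 20 kb and 43.1% of all. The nearest other zone lay a median of 44.8 kb away, and 757 zones (52.8%) had another zone within 50 kb, against 33.8% of WT regions of 10 to 20 kb and 12.6% of all with a zone that near. Of the zones, 538 (37.5%) lay within 5 Mb of the first base of their chromosome or of the end of its last listed region, against 15.4% of all autosomal WT regions. In addition, 31 zones lay within 2 Mb of the longest stretch of their chromosome that no region of any list touched.

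Most of the broad zones of HCT116 cells held a RepID region listed in U2OS cells. A RepID region was counted as inside a zone when its centre lay there. By this count 888 of the 1433 zones (62%, 95% confidence interval 59.4 to 64.5%) held at least 1 RepID region, against 16.4% of all autosomal WT regions and 37.1% of the 3988 WT regions of 10 to 20 kb. The difference from the latter was 24.9 percentage points (21.9 to 27.8). With only RepID regions at or above the list's median score, 45.6% of the zones held at least 1. Since a longer region has more room, the number per Mb was compared as well. It was 66.5 RepID regions per Mb of zone (exact Poisson interval 64.1 to 68.9), 56.7 (54.7 to 58.8) in WT regions of 10 to 20 kb and 55.9 (54.2 to 57.7) in those of 5 to 10 kb, but 77.2 (75.5 to 79.0) in those of 2 to 5 kb and 87.2 (84.2 to 90.4) in those under 2 kb. With RepID regions less than 1 kb apart merged, the density in zones was 39.9 per Mb. Density per Mb, counted without merging, was thus highest in the narrowest WT regions, whereas among the zones it rose from 61.3 (58.0 to 64.7) at 20 to 30 kb through 65.6 (61.7 to 69.8) at 30 to 50 kb to 83.3 (76.9 to 90.1) above.

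The surroundings of the zones were also rich in RepID. The flanks on both sides of each zone, each as wide as the zone, held 40.6 RepID regions per Mb, against 8.30 over the autosomes as a whole and 1.32 outside all WT regions. The zones exceeded their own flanks 1.64 times (1.56 to 1.72). For WT regions of 10 to 20 kb this ratio was 1.90, and for those of 2 to 5 kb it was 7.73. Flanks are as wide as the region, so those of narrow regions reach less far and the ratios are not measured at like distances. Zone by zone, RepID density was higher inside than in the flanks in 685 zones and lower in 447, while 244 had no RepID region in either place.

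RepID regions came in groups inside the zones. The 2957 RepID regions in zones, 12.4% of those on the autosomes, averaged 2.06 per zone, but 545 zones held none, 271 held 1, 184 held 2, 221 held 3 or 4, and 212 held 5 or more. The last group held 1569 of them, or 53.1%. The median distance between neighbouring RepID centres of the same zone was 1.63 kb over 2069 such pairs, with quartiles at 0.969 and 4.70 kb; 26.9% were under 1 kb, so part of the grouping lies in neighbours that merging at 1 kb would join, and 11.9% were over 10 kb. In narrower WT regions, where wide spacing has no room, the median was 0.979 kb. In the 617 zones with 2 or more, the stretch from the first to the last RepID centre took up a median of 36.5% of the zone. Of these zones, 184 held only 2. How far this span follows from the small number of RepID regions per zone was not tested.

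Along the zones, RepID regions were somewhat less frequent in the middle. With each zone cut into 3 equal parts, the first, middle and last held 34.5% (32.8 to 36.2%), 30.6% (28.9 to 32.3%) and 34.9% (33.2 to 36.7%) of the RepID centres. Measured from the edge inwards, their density was 44.0 per Mb in the outermost kb, 85.5 per Mb at 3 to 4 kb from the edge and 56.2 per Mb at 9 to 10 kb. Just outside the edge it was 7.33 per Mb in the first kb and returned to 42.9 per Mb at 3 to 4 kb, where other WT regions again covered 58.5% of the bases, against 3.29% in the first kb. The RepID regions in zones were not the strongest of the list. A MACS score at or above the list's median of 198 was found for 49.6% of them, against 54.2% of the 17536 in narrower WT regions, a difference of -4.52 percentage points (-6.46 to -2.57). Their median width was 615 bp and that of the others 584 bp, and 57.8% against 53.6% reached the list's median width of 559 bp, a difference of 4.23 percentage points (2.30 to 6.15).

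**Figure D2:**
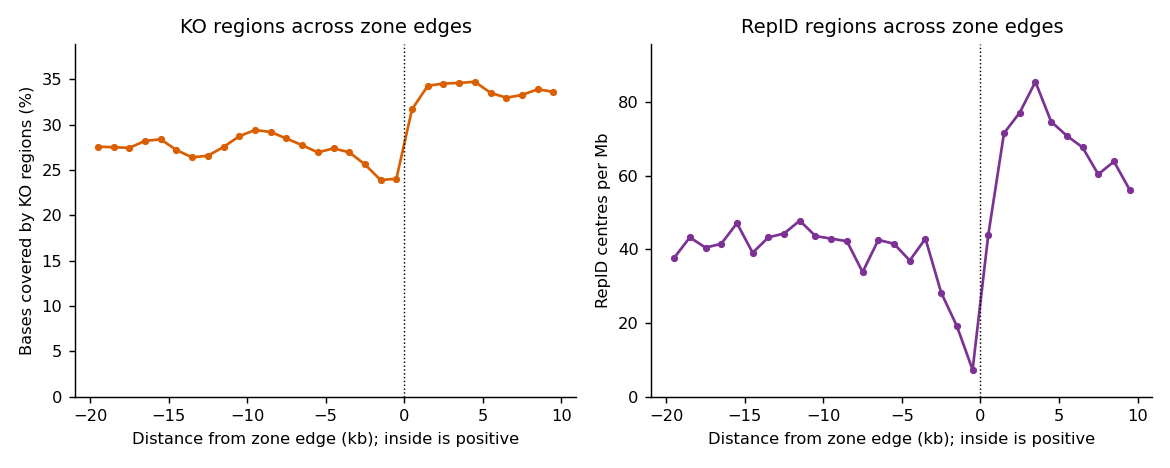
Both panels run across zone edges, folded so that negative distances lie outside and positive distances inside a zone, in steps of 1 kb; the left panel gives the percentage of bases covered by KO regions and the right panel the RepID centres per Mb. KO coverage steps from 24.0% to 31.7% at the edge, and RepID density peaks at 85.5 per Mb at 3 to 4 kb inside. Farther outside KO coverage is higher than next to the edge, 27.4% at 4 to 5 kb and 29.4% at 9 to 10 kb.

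In cells without RepID, most zones still overlapped a region of initiation, but over a minor part of their length. These values rest on a deposited KO list of 159667 regions, against 78859 in the WT list. The paper reports fewer initiation peaks in KO cells than in WT cells, so the KO set counted there was smaller than this list. The filters behind the size of the deposited list are not given in the sources used here. With only as many top-scoring KO regions as the WT list holds, 70.5% of the zones were overlapped and 25.9% of their bases covered. That cut still keeps more KO regions than the paper counts. In the whole list, a KO region overlapped 1263 of the 1433 zones by at least 1 bp (88.1%, 95% confidence interval 86.3 to 89.8%), against 61.6% of all autosomal WT regions and 82.2% of WT regions of 10 to 20 kb, from which the zones differed by 5.97 percentage points (3.84 to 7.96). The opposite order was seen for the extent of overlap. KO regions covered at least 50% of the bases of 398 zones (27.8%, 25.5 to 30.2%), against 46.3% of all autosomal WT regions and 34.5% of those of 10 to 20 kb, a difference from the latter of -6.73 percentage points (-9.43 to -3.94). A wider region has more room for an overlap of 1 bp, and a narrow one is more readily covered over 50% by a single KO region. How far width alone accounts for either difference was not tested. Summed over all bases, KO regions covered 32.5% of the zones, 38.0% of WT regions of 10 to 20 kb, 43.8% of those of 5 to 10 kb, 46.6% of those of 2 to 5 kb and 44.4% of those under 2 kb. Among the zones coverage fell with width, from 34.8% at 20 to 30 kb through 32.1% at 30 to 50 kb to 26.5% above.

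Zones differed widely from each other. KO coverage had quartiles at 10.4% and 52.4% around a median of 27.8%; 349 zones were covered over less than 10% of their length, including 170 with no KO region at all, and 45 over at least 90%, including 10 that were covered completely. The 170 zones without a KO region had a median WT score of 5726 against 4660 for the rest and a median width of 25.4 kb, and 110 of them held RepID. The share without a KO region was 12.4% among zones with RepID and 11% among zones without it, and the interval of the difference, 1.38 percentage points, ran from -2.15 to 4.69.

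Most of the KO regions in the zones were short. Zones held 2.56 KO regions on average (exact Poisson interval 2.48 to 2.64); 289 held 1, 797 held 2 to 4 and 177 held 5 or more, with 21 in the zone that held most. With only as many top-scoring KO regions as the WT list holds, the mean was 1.5 per zone. Per 10 kb the zones held 0.824 KO regions, fewer than WT regions of 10 to 20 kb (1.07), 5 to 10 kb (1.43), 2 to 5 kb (2.29) and under 2 kb (4.22). Of the 3667 overlaps, 2934 (80%) were KO regions lying wholly inside a zone, 726 crossed an edge and 7 spanned a zone entirely. Those wholly inside had a median width of 3.2 kb, with quartiles at 2.2 and 4.6 kb, close to the 3 kb median of all autosomal KO regions, and the widest reached 49.8 kb. The longest stretch of a zone with no KO region measured a median of 12 kb, or 43.1% of the zone. Of the zones, 50 (3.49%) were touched by a KO region that was itself 20 kb or wider, and of the 371 such broad KO regions on the autosomes 48 (12.9%) touched a zone. Among autosomal KO regions of every width the share that touched a zone was 2.28%, so broad KO regions met the zones more often than KO regions in general, though a wide region also has more room to do so. KO regions at zones scored at or above the KO list's median in 59.0% of cases, against 62.9% at WT regions of 10 to 20 kb, a difference of -3.87 percentage points (-5.91 to -1.83).

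KO regions covered the zones somewhat more than their surroundings. The flanks were covered by KO regions over 27.1% of their bases, 5.36 percentage points less than the zones (5.13 to 5.6, counted in 200 bp windows), and the autosomes as a whole over 19.3%. A KO region can span many such windows, so this interval is too narrow and does not measure the spread between zones. For WT regions of 10 to 20 kb the margin was 10.1 percentage points, for those of 2 to 5 kb it was 13.4 and for those under 2 kb it was 9.76. Among the zones it was 6.86 at 20 to 30 kb, 4.47 at 30 to 50 kb and 2.83 above 50 kb. Of the 1433 zones, 809 (56.5%, 53.8 to 59.0%) were covered more than their flanks, 595 less and 29 equally. Many flanks contain WT regions of their own. Against flank bases outside all WT regions the margin was 13.8 percentage points.

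Inside the zones KO coverage varied little along the length. With each zone cut into 3 equal parts, KO coverage was 33.1% in the first, 31.9% in the middle and 32.3% in the last, so the middle was -0.810 percentage points from the outer parts (-1.22 to -0.398). With the width limit lowered to 15 kb this difference was -0.305, with an interval of -0.652 to 0.0436. Both intervals count 200 bp windows as if independent and are too narrow. Coverage stepped from 24.0% in the last kb outside the edge to 31.7% in the first kb inside and lay between 33.0% and 34.7% from 1 to 10 kb inside. Farther outside it was higher than next to the edge, 27.4% at 4 to 5 kb and 29.4% at 9 to 10 kb. The last kb outside held few other WT regions, which covered 3.29% of its bases, against 60.5% at 4 to 5 kb. The edge of a WT zone was thus a step in the KO list, but a smaller one against these wider surroundings. The 10 equal parts of the zone lay between 31.3% and 34.1%.

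KO coverage of the zones varied widely between chromosomes. It was 57.1% on chromosome 10, 53.1% on chromosome 8 and 52.7% on chromosome 17, but 14.6% on chromosome 19, 17.6% on chromosomes 7 and 21, and 20.6% on chromosome 22. The flanks moved with the zones, from 45.9% on chromosome 8 and 42.8% on chromosome 17 to 11.8% on chromosome 19. Means over a chromosome hide differences along it. On chromosome 17 the median KO coverage per zone was 19.5% in the 23 zones of the first 10 Mb, 78.3% in the 30 zones from 40 to 50 Mb and 60.7% in the 69 zones from 70 to 80 Mb. On chromosome 10 it was 87.3% in the 10 zones from 120 to 130 Mb and 0% in the 7 zones beyond, where the highest value was 100%. On chromosome 8, 45 of the 63 zones lay beyond 140 Mb, with a median of 59.0%. On chromosome 16 the median was 0% in the 32 zones of the first 10 Mb and 71.4% in the 48 zones from 80 to 90 Mb. The median of the flanks differed alike, at 20.9%, 65% and 48.7% in the same stretches of chromosome 17. Chromosome 19, second in zone density, also had the lowest share of zones with any KO region, 73.6%, against 98.4% on chromosome 17, first in density. Zones were covered more than flanks on 21 of the 22 autosomes; chromosome 21, with 16 zones, was the exception at -3.94 percentage points. Zones within 5 Mb of a chromosome end were covered over 23.8% of their bases and the others over 38.5%, while their RepID densities were 73.3 and 61.7 per Mb.

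Zones with RepID were covered by KO regions less than zones without it. KO regions covered 30.6% of the bases of the 888 zones with RepID and 36.1% of those of the 545 zones without, while the flanks differed less, at 26.4% and 28.6%. The margin of zone over flank was thus 4.25 percentage points with RepID and 7.51 without. Coverage of at least 50% was reached by 25.8% of the zones with RepID and 31.0% of the others, a difference of -5.22 percentage points (-10.1 to -0.441). Zones with RepID were wider, and the difference was not alike across widths: at 20 to 30 kb it was -0.694 (-6.69 to 5.23), and at 30 kb or more -12.8 (-21.7 to -4.27). Whether these strata differ from each other was not tested. Without the 188 zones of chromosome 17 the difference was -5.88 (-10.8 to -1.06). On 16 of the 18 autosomes with at least 10 zones of either kind, total KO coverage was lower in the zones with RepID. By number of RepID regions, median KO coverage per zone was 32.3% with none, 24.4% with 1, 25.5% with 2, 29.3% with 3 or 4, 22.7% with 5 to 9 and 17.1% in the 35 zones with 10 or more. The last 2 groups were the widest, with median widths of 33.8 and 52.4 kb, and quartiles of all groups overlapped.

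**Figure D3:**
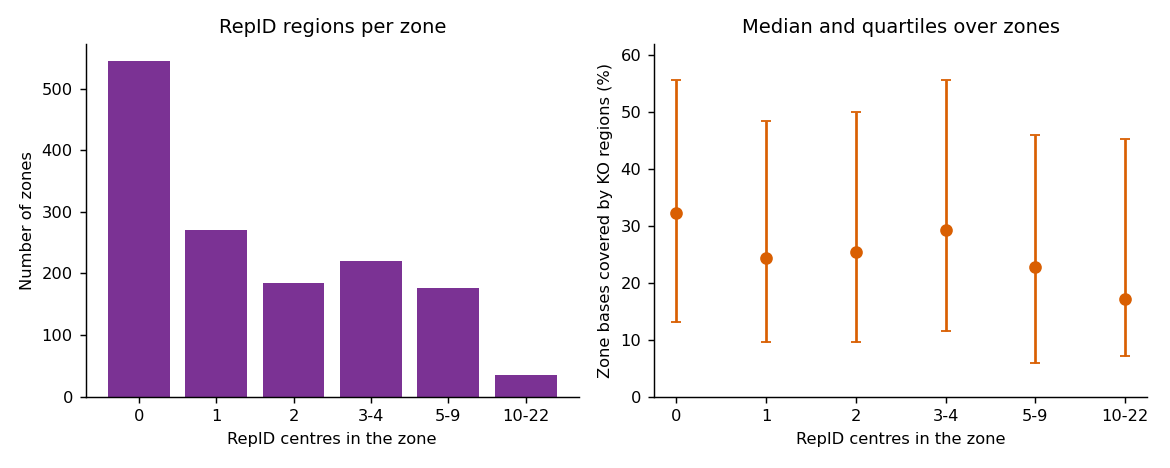
The left panel gives the number of zones by the number of RepID centres they hold, and the right panel the median (point) and quartiles (bars) over zones of the percentage of zone bases covered by KO regions. Medians run from 32.3% in the 545 zones without RepID to 17.1% in the 35 zones with 10 or more, and the quartiles overlap.

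Within the zones, KO regions were least frequent at the RepID sites themselves. Of the 2957 RepID centres in zones, 596 lay in a KO region (20.2%, 95% confidence interval 18.7 to 21.6%), whereas KO regions covered 30.6% of all bases of the same zones, a gap of -10.5 percentage points. The share rose with distance on either side, to 22.2% (21.1 to 23.3%) at 0.5 kb, 24.9% (23.8 to 26.1%) at 1 kb and 29.0% (27.8 to 30.2%) at 2 kb, and levelled at 31.5% (30.2 to 32.8%) at 4 kb. Taken by distance to the nearest RepID centre instead, zone bases within 0.5 kb were covered to 21.5%, those at 0.5 to 1 kb to 26.4%, and those from 2 to 5 kb away to 33.2%.

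The dip recurred across chromosomes and widths. On each of the 19 autosomes with at least 20 RepID centres in zones, the share at RepID centres lay below the coverage of those zones, including chromosome 17, where it was 35.0% against 51.4%, and chromosome 19, where it was 7.65% against 13.9%. Among zones with a single RepID region it was 20.3% against 31.4%, and among those with 10 or more 18.7% against 26.0%. At 20 to 30 kb the share was 23%, at 30 to 50 kb 17.9% and above 50 kb 17.8%, against coverages of 34.1%, 28.9% and 27.1% in the zones concerned. Chromosome 21, with 9 RepID centres in zones, had the opposite order, 66.7% against 43.3%. In the 31 zones near the longest stretch of the chromosome free of regions, 50% of the 74 RepID centres were covered. The KO coverage of these zones was not set beside that share, so whether they show a dip was not assessed. Without these zones the share was 19.4%, against a coverage of 30.4%. Stronger RepID regions were covered less often. The share was 22.9% (20 to 26.0%) in the lowest 25% of MACS scores and 16.8% (14.2 to 19.6%) in the highest 25%, a difference of -6.14 percentage points (-10.1 to -2.15).

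The dip was not particular to broad zones. In WT regions of 10 to 20 kb 23.7% of the RepID centres were covered, against 34.8% of the bases of the same regions, a gap of -11.1 percentage points. Zones differed from these regions in the share at RepID centres by -3.58 percentage points (-5.67 to -1.49). In regions under 10 kb 19.9% were covered, and the difference of zones from these was 0.263 percentage points (-1.29 to 1.88). Of the 888 zones with RepID, 568 (64.0%) had none of their RepID centres in a KO region, and 458 of these still held a KO region elsewhere in the zone. In 234 zones some RepID centres were covered and in 86 all of them.

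**Figure D4:**
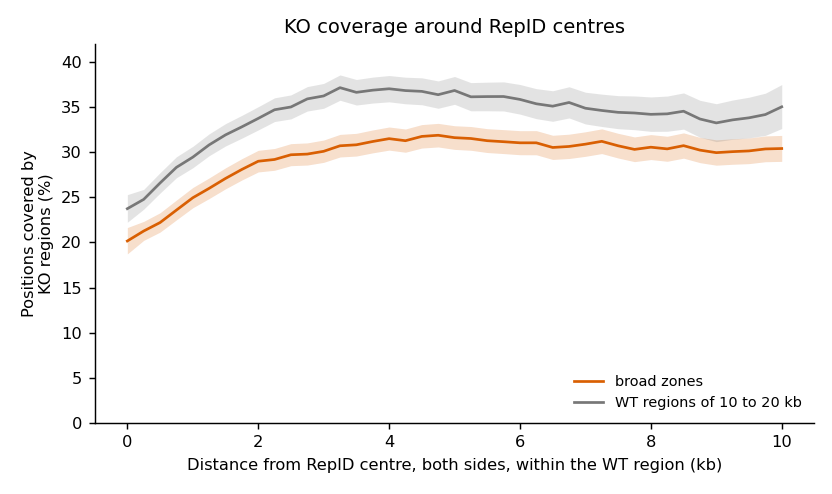
The percentage of positions covered by KO regions is plotted against distance from RepID centres, counting only positions within the same WT region, for broad zones and for WT regions of 10 to 20 kb; shading gives exact binomial 95% intervals. Both curves are lowest at the RepID centre, at 20.2% and 23.7%, and rise over about 2 to 4 kb.

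Single zones show the range of these patterns. Positions are on hg19, counted from 1. The widest zone, on chromosome 16 from 88861601 to 89011400 (149.8 kb), held 13 RepID regions with centres from 8.0 to 130 kb from its start and 21 KO regions. The KO regions measured 1 to 10 kb, with the widest from 88903001 to 88913000, and covered 54.1% of the zone, against 35.0% of its flanks. KO initiation thus recurred along its whole length, and 7 of the 13 RepID centres lay in a KO region. High KO coverage was common in this stretch of the chromosome. The 48 zones from 80 to 90 Mb, this one among them, had a median KO coverage of 71.4%, and their flanks 62.7%. Another zone of that chromosome, from 88749401 to 88852800 (103.4 kb), was covered over 41.0% by 10 KO regions, and 1 of its 6 RepID centres lay in one.

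The second widest zone, on chromosome 1 from 2368201 to 2502200 (134 kb), behaved differently. It held 6 KO regions, the widest from 2440601 to 2443400, which together covered 8.8 kb or 6.57% of it, against 26.7% of its flanks. Its RepID regions, from 2457248 to 2457725, from 2478474 to 2479225 and from 2487269 to 2488005, all lay in the last part of the zone, and no KO region covered any of their centres. A zone on chromosome 19 from 566001 to 668400 (102.4 kb) also had low coverage, 7.23% by 4 KO regions, but here the flanks were covered no more, over 5.96%; none of its 4 RepID centres was covered. The third widest zone, on chromosome 12 from 34439401 to 34560200 (120.8 kb), is among the 31 near the longest stretch free of regions; it held 13 RepID regions, of which 3 were covered, and 4 KO regions that covered 26.5% of it.

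The zones richest in RepID held up to 22 RepID regions. On chromosome 8 from 142360001 to 142447600 (87.6 kb), 10 of 22 RepID centres were covered and KO coverage was 46.1%, below the 58.7% of the flanks. On chromosome 20 from 61860401 to 61930800 (70.4 kb), 22 RepID regions with a median spacing of 1.78 kb were accompanied by a single KO region, from 61892601 to 61903400, that covered 15.3% of the zone and 3 RepID centres. The strongest RepID region of this zone, from 61883105 to 61885895 with a MACS score of 1437, lay outside it. A second zone on chromosome 20, from 61423001 to 61472200 (49.2 kb), held 17 RepID regions, all in its first 34.0 kb, and 2 KO regions from 61429001 to 61431600 and from 61432601 to 61435600 that covered 11.4% of it and 1 RepID centre. The flanks of the 2 zones on chromosome 20 were covered over 20.5% and 8.13%.

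The 3 widest zones without any KO region all lay on chromosome 19. From 1204601 to 1281800 (77.2 kb), 12 RepID regions with a median spacing of 2.46 kb were found, the strongest from 1206362 to 1207250 with a MACS score of 346. From 3505801 to 3567600 (61.8 kb) there were 5 RepID regions, the first at the very start of the zone, and from 1805401 to 1866000 (60.6 kb) there were 2, both within the last 5 kb. The flanks of these zones were themselves covered by KO regions over 8.16%, 8.58% and 3.96% of their bases only.

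Among the zones without RepID, whose KO coverage had quartiles at 13.2% and 55.7%, the 3 widest differed from each other. The widest, on chromosome 1, ran from 3405401 to 3502000 (96.6 kb); KO regions covered 8.90% of it and 13.7% of its flanks, which held 6 RepID regions. The next, 93.2 kb on chromosome 17 (77073801 to 77167000), was covered over 53.9% and its flanks, with 12 RepID regions, over 51.3%. The last of the 3, 84.2 kb on chromosome 15 (25414401 to 25498600), was covered over 7.36% and its flanks, with no RepID region, over 20.4%. At the other extreme, the 3 widest of the 10 zones that KO regions covered completely lay on chromosomes 4 (9240201 to 9274600), 16 (88120201 to 88145000) and 10 (135477801 to 135502400). A single KO region reached over each, measuring 59.8, 39 and 27 kb. The scores of these KO regions, 6767, 1723 and 6106, were above those of 99.9% of KO regions. The zone on chromosome 10 held 1 RepID region, whose centre was covered, and the others held none.

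**Figure D5:**
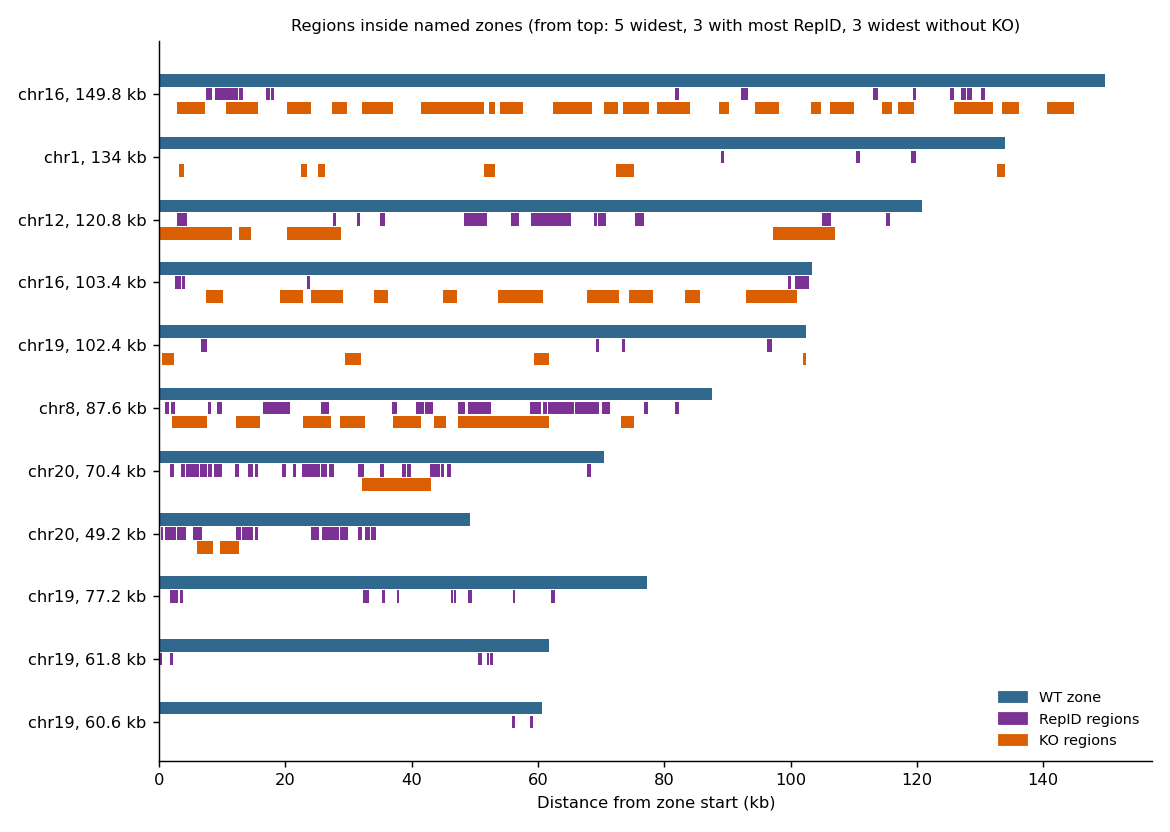
Each row is a named zone drawn from its start in kb, with the WT zone on top, RepID regions in the middle and KO regions below, for the 5 widest zones, the 3 with most RepID regions and the 3 widest without a KO region; regions under 0.35 kb are drawn at that width. The zone at the top, 149.8 kb on chromosome 16, holds 21 KO regions spread over its length, and the last 3 rows, on chromosome 19, hold RepID regions and no KO region.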

How the data were processed

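Nascent strands of 0.5 to 1 kb, purified with lambda exonuclease, and anti-FLAG ChIP DNA were sequenced by the study. The authors deposited enriched regions only, on hg19 (per the submitters' processing notes), each with a score. The RepID score is that of MACS, run by the authors against genomic input; the score of the nascent-strand lists is a whole number of unstated meaning. The processing notes name MACS and SICER; which one called the HCT116 lists is not given in the sources used here, but all their regions lie on a grid of 200 bp. A caller that joins windows across gaps can merge neighbouring origins into 1 zone, so widths depend on it.

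Zones were WT regions of at least 20 kb on autosomes. KO regions were merged into a covered set and RepID regions were reduced to their centres. Flanks were as wide as the zone on either side, cut at the last listed region. Overlap functions (Python 3.11.15, numpy 2.4.6, SciPy 1.17.1) were checked on simulated regions, with bedtools 2.31.1 as the reference. The members and comparisons were chosen with earlier results of these data known. Named zones were the 5 widest, the 3 with most RepID centres, the 3 widest without RepID, the 3 widest without KO regions and the 3 with the highest KO coverage. Genes and sequences at the zones were not analysed here, as no annotation on hg19 was used.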

Additional observations from a re-analysis of the deposited data

Results flagged for a closer look

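The rule for the zones leaves out the sex chromosomes. On chromosome X, 12 WT regions of 20 kb or more were found, the widest 49 kb, with 11 RepID centres inside. KO regions covered 2.15% of their 362 kb, far below any autosome, but the KO list holds only 190 regions on chromosome X in all, against 1304 in the WT list, so the whole chromosome is sparse in that list. The cause was not tested.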

How the results depend on the processing

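Of 69 recomputed values, 28 stayed close to the reported one and 41 moved further. Close means within its 95% interval or, for the number of zones, within 1.5 times. For KO coverage, its margin over flanks and its position in the zone, that interval counts 200 bp windows as independent. It is therefore narrow, and a small shift counts as moved there. A change of direction was possible only for the margin over flanks and for the middle minus the outer parts, and none was seen there. The other values are counts, shares and densities, which have no sign to change. With a width limit of 15 kb (and of 30 kb) there were 2559 (522) zones, 53.7% (72.8%) held RepID, RepID density was 63.2 (71.4) per Mb, KO coverage 33.7% (30.3%), the margin over flanks 6.30 (3.93) percentage points, the middle minus the outer parts -0.305 (-1.52) and KO regions per zone 2.18 (3.24); at 30 kb, 17.8% of RepID centres were covered. With WT regions under 1 kb apart merged, RepID density was 62.6 per Mb, 89.9% of zones overlapped a KO region, coverage was 33.4%, the margin 6.06 and KO regions per zone 2.70. Without chromosome 17, coverage was 29.5%, the margin 4.68, coverage at RepID centres 17.3%, the position difference -1.34 and KO regions per zone 2.44. With KO regions at or above the median score (and with as many top-scoring KO regions as the WT list holds), these were 70.7% (70.5%) of zones overlapped, 26.0% (25.9%) coverage, a margin of 4.56 (4.55), 16.3% (16.3%) at RepID centres and 1.52 (1.5) KO regions per zone. With RepID regions at or above the median score, 45.6% of zones held RepID at 33.0 per Mb, and 17.7% of centres were covered; merging RepID regions under 1 kb apart gave 39.9 per Mb. Requiring 50% overlap gave 27.8% of zones, and flank bases outside all WT regions a margin of 13.8. The alternatives keep fewer or other regions or define overlap or flanks otherwise, and what moved each value was not tested. Leaving out zones within 2 Mb of the longest stretch free of regions was chosen after seeing the data. No paired analysis was possible because each condition has 1 library. Depth is unknown, so a zone without a KO region is one where none was listed, not one without initiation.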
